A study of Mus musculus with 6 samples.

Results

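The Bcl2 family and p53 survival genes described here are 10 mouse genes, Bcl2, Bcl2l1, Mcl1, Bax, Bak1, Bcl2l11, Bbc3, Pmaip1, Trp53 and Cdkn1a, taken by symbol from a table of 35274 genes. Each symbol had 1 row. RNA was sequenced from mouse dentate neuroepithelium, the stretch of embryonic hippocampal wall that gives rise to the dentate gyrus, at embryonic day 14. The HOMO libraries are labelled SOX11f/f, with 2 floxed alleles of the transcription factor gene Sox11, and homodeficient. The HTZ libraries are labelled SOX11f/+, with 1 floxed allele, and haplodeficient. The WT libraries are the controls. Each of the 3 genotypes had 2 libraries. A floxed allele is lost only where Cre recombinase acts, and the labels name no Cre line. The values are TPM, a relative transcript abundance corrected for transcript length, which lets levels of different genes be compared.

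Bcl2 family proteins decide whether the outer membrane of mitochondria is opened, which releases cytochrome c and starts the caspases. The guardians Bcl2, Bcl2l1 (Bcl-xL) and Mcl1 hold the pore-forming effectors Bax and Bak1 in check, and BH3-only proteins such as Bcl2l11 (Bim), Bbc3 (Puma) and Pmaip1 (Noxa) bind the guardians and free the effectors. The p53 protein, encoded by Trp53, is a transcription factor held low by Mdm2-driven degradation, and after DNA damage it activates Bbc3, Pmaip1, Bax and the cell cycle inhibitor Cdkn1a (p21). In the embryonic mouse brain Bcl2l1 is known to keep newborn neurons alive and Mcl1 to keep neural progenitors alive.

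Start-site windows are shown for the 3 members whose HOMO and HTZ libraries all lay on the same side of both WT libraries, as described below. They are RefSeq windows on GRCm38.p6, from 250 bases before to 50 bases after an annotated start, 5′ to 3′ on the strand of the gene. Capitals mark, in Cdkn1a, a p53 response element (a pair of adjacent copies of the 10-base p53 decamer, with the invariant C and G of each copy required and at most 1 mismatch elsewhere) and, in Trp53, the Sox cores ACAAAG or ACAATG on either strand. The Cdkn1a window belongs to the more upstream of 2 annotated starts, at chr17:29090729-29091028 on the plus strand. The Trp53 window is chr11:69580109-69580408 and the Bcl2l11 window is chr2:128125788-128126087, both on the plus strand.
Cdkn1a: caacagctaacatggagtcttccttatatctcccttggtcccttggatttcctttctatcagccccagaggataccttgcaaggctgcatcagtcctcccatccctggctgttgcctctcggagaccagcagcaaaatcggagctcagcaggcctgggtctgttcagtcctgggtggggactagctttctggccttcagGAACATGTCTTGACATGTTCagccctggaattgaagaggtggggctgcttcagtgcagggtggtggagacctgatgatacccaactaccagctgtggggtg
Trp53: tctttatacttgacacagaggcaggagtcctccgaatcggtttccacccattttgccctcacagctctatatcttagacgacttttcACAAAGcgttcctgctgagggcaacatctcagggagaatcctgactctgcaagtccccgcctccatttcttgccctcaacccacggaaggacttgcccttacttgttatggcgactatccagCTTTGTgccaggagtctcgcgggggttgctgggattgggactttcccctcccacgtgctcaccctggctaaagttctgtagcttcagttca
Bcl2l11: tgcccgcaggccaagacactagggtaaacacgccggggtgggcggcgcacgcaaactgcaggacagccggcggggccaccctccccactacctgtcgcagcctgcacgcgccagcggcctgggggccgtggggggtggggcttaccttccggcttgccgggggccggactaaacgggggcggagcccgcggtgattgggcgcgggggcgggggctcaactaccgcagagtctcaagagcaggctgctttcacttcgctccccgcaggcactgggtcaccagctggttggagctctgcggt

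The Cdkn1a element, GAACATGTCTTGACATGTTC, has 1 mismatch to the consensus and begins 51 bases upstream of that start. It is the only p53 element by this definition in the 15 windows found for 9 members. An element occurs in 22 of 32851 windows of the same length, or 0.067%, and those windows belong to 22 genes, of which Cdkn1a, Ccng1 and Gtse1 are in the list of p53 target genes used below. A Sox core occurs in 28.6% of all windows and in 5 of the 15 windows of the members, with 2 cores in the Trp53 window and none in the Bcl2l11 window shown. These are matches of letters within short windows and were not tested for binding.

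On GRCm38 with GENCODE vM21, Bcl2 spans chr1:106538178-106714274, Bcl2l1 chr2:152780668-152831728, Bax chr7:45461697-45466898 and Bak1 chr17:27019810-27029009, all on the minus strand. Mcl1 spans chr3:95658788-95663176, Bcl2l11 chr2:128126038-128162547, Bbc3 chr7:16308393-16318205, Trp53 chr11:69580359-69591873 and Cdkn1a chr17:29090976-29100727, all on the plus strand. Each value counts all transcripts of such a locus. Bcl2 and Cdkn1a share 558 and 273 exon bases with annotated genes on the other strand, and Bax shares 192 with Gm45808 on its own strand, which stood at or under 0.21 TPM.

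Sox11 itself followed the labels. It stood at 5.23 and 5.06 TPM in HOMO, 56.1 and 50.1 TPM in HTZ, and 192 and 130.2 TPM in WT libraries. It fell by 4.69 on the log2 scale in HOMO against WT (limma adjusted p = 0.00082). In HTZ against WT the log2 fold change of Sox11 was -1.56, and it did not pass (limma adjusted p = 0.11). A fall of that size can thus fail to pass in this fit. Markers of progenitors (Sox2, 72.95 to 104 TPM) and of newborn neurons (Neurod1, 157 to 392 TPM) were present in all 6 libraries, and so were genes of the mature brain, the astrocyte gene Gfap (268 to 576 TPM) and the neuronal kinase gene Camk2a (121 to 496 TPM). The embryonic globin gene Hbb-y was listed at 0 in all 6. How these levels fit with embryonic day 14, the age given for the samples, was not tested. Choroid plexus RNA set 2 libraries apart. Ttr, the main product of that epithelium, was at 6421 and 184 TPM in HOMO, 11259 and 4.44 TPM in HTZ, and 3.07 and 2.04 TPM in WT libraries. TPM values keep no read depth, so the depth is unknown. Whether the 2 libraries of a genotype are different embryos is not stated, and the spread behind each p-value may therefore be technical. In these bulk samples, fewer cells of a type and less RNA per cell cannot be told apart.

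The members spanned more than 2 orders of magnitude, and their order was nearly the same in each genotype. Bax was highest, at 193, 197 and 192 TPM on average in HOMO, HTZ and WT libraries, higher than 95.04% of the 14518 genes that averaged 1 TPM or more. Bcl2l1 and Mcl1 came next, and their library ranges overlapped in HTZ and in WT libraries but not in HOMO libraries. Trp53 followed, overlapping Mcl1 in WT libraries only. Bbc3 and Bak1 lay between 30.7 and 43.3 TPM in all libraries, overlapping in HOMO and HTZ libraries. Cdkn1a, Bcl2l11 and Bcl2 filled the places below, and Pmaip1 was last, at or under 1 TPM in every library. The order of Cdkn1a and Bcl2l11 is where the genotypes differed most. In HOMO and HTZ libraries Cdkn1a stood clearly above Bcl2l11, while in WT libraries their ranges overlapped, at means of 15.1 TPM for Cdkn1a and 15.2 TPM for Bcl2l11.

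**Figure D1:**
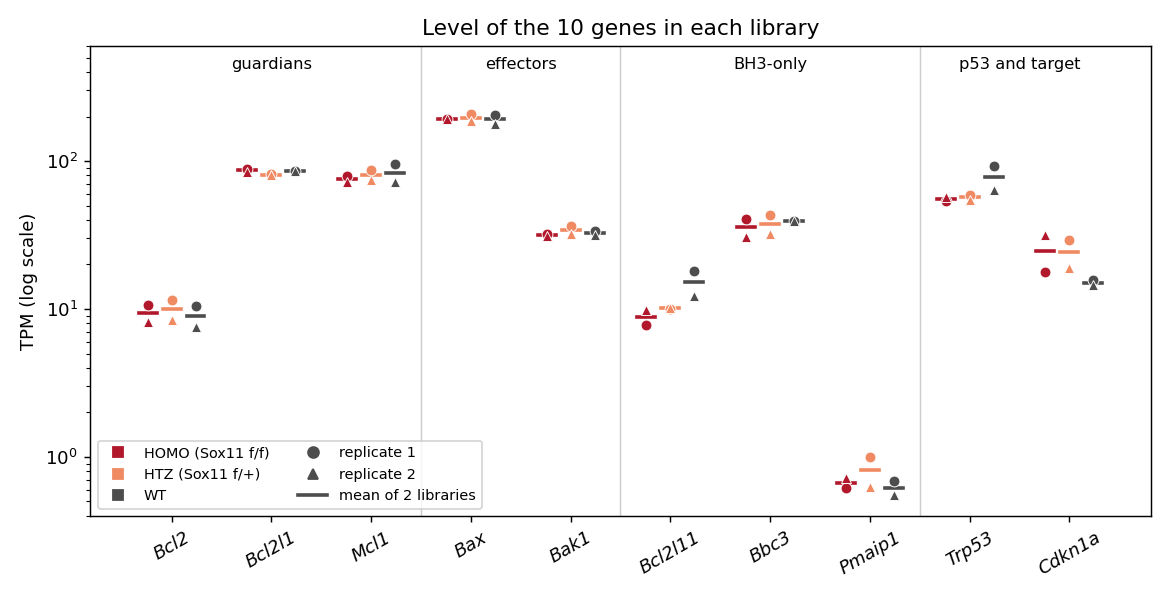
TPM (log axis) of each of the 10 genes in each library, grouped by role, with HOMO, HTZ and WT side by side, circles for replicate 1, triangles for replicate 2 and a line at the mean of 2 libraries. Bax is highest in every library and Pmaip1 lowest, and the genotypes separate from WT in Bcl2l11, Trp53 and Cdkn1a.

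Genotypes were compared with limma on log2(TPM + 1), a scale that understates changes of low genes, over the 14518 genes that averaged 1 TPM or more. That left 9 of the 10 members, since Pmaip1 averaged less. No member passed at an adjusted p of 0.05 in any comparison, where 0.0413% of all genes passed in HOMO against WT, 0.0344% in HTZ against WT and 0.0138% in HOMO against HTZ. At an unadjusted p of 0.05, 2 of 9 members lay below WT in HOMO libraries (Bcl2l11 and Trp53), where 18.1% of all genes were at that level in either direction. The same 2 members lay below WT in HTZ libraries, where 14.1% of all genes were. In HOMO against HTZ the count was 0 of 9, with a background of 2.05%. Libraries did not overlap for 3 of 9 members in HOMO against WT (background 54.3%), 4 of 9 in HTZ against WT (background 46%) and 2 of 9 in HOMO against HTZ (background 29.1%). These shares are near or below the backgrounds, and the unadjusted counts rest on 2 genes. The comparisons of HOMO and of HTZ libraries share the WT libraries, so they are not separate evidence.

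Taking all 4 HOMO and HTZ libraries together, 3 of 9 members did not overlap with WT, where 34.3% of all genes did not. Bcl2l11 and Trp53 were lower in all 4 (as were 21% of genes) and Cdkn1a was higher in all 4 (as were 13.3% of genes). The median log2 fold change of the 9 members was -0.05 in HOMO against WT, -0.04 in HTZ against WT and -0.07 in HOMO against HTZ. Over all genes tested the medians were -0.04, -0.06 and 0.01.

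**Figure D2:**
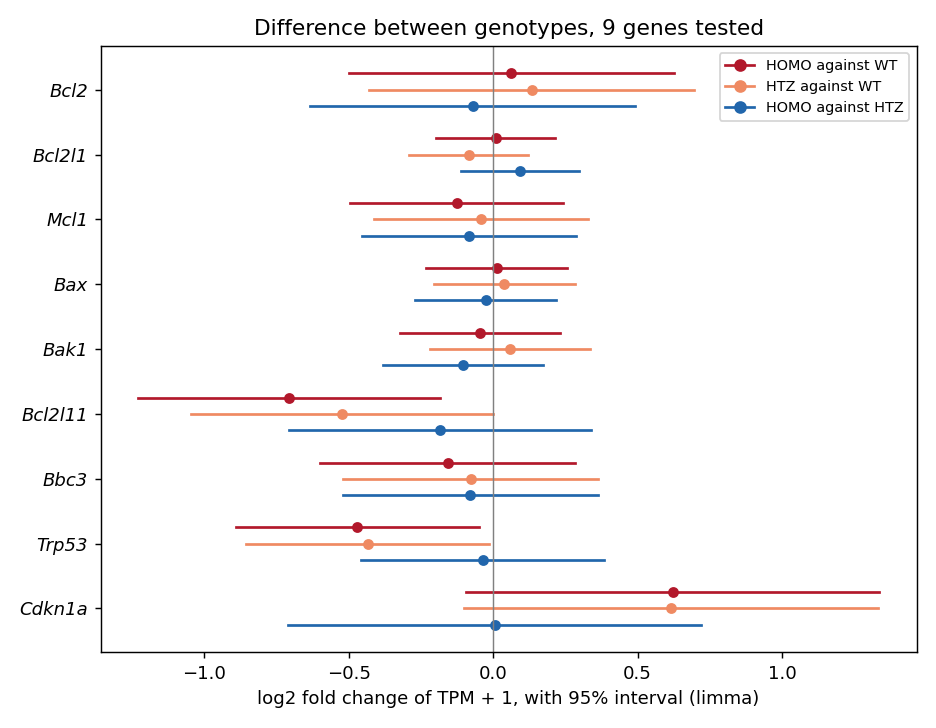
Log2 fold change of TPM + 1 with its 95% interval from limma for the 9 members tested, in HOMO against WT, HTZ against WT and HOMO against HTZ. Only the intervals of Bcl2l11 and Trp53 against WT leave out 0, and no member passed after adjustment over all genes.

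Among the guardians, Bcl2l1 was the steadiest member. It stood at 88.3 and 84.9 TPM in HOMO libraries, 82.3 and 79.9 TPM in HTZ libraries and 86.2 and 85.8 TPM in WT libraries. HTZ libraries lay just below those of both other genotypes, which overlapped each other. Its log2 fold change was 0.01 in HOMO against WT (SE 0.09, limma adjusted p = 0.97), and the 95% interval ran from 0.873-fold to 1.16-fold. In HTZ against WT it was -0.08 (SE 0.09, limma adjusted p = 0.67), with an interval from 0.818-fold to 1.09-fold. Splicing of this gene gives a long, protective and a short, death-promoting form, which a value per gene does not separate.

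Mcl1, a short-lived guardian, was at 78.9 and 72.7 TPM in HOMO, 87.0 and 74.1 TPM in HTZ, and 95.3 and 71.9 TPM in WT libraries. The WT pair spanned all other libraries. Its log2 fold change was -0.13 in HOMO against WT (SE 0.16, limma adjusted p = 0.68, interval 0.709-fold to 1.18-fold). Bcl2, the founding member of the family, was an order of magnitude lower. It stood at 10.6 and 8.23 TPM in HOMO, 11.5 and 8.44 TPM in HTZ, and 10.4 and 7.61 TPM in WT libraries. In each genotype the 2 libraries lay further apart than the means of the genotypes did. The log2 fold change of Bcl2 was 0.06 in HOMO against WT (SE 0.24, limma adjusted p = 0.90), and a 1.54-fold difference lies within its interval.

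The effectors, which form the pore in the mitochondrial membrane, had some of the narrowest intervals. Bax was at 193.4 and 193.0 TPM in HOMO, 207 and 187 TPM in HTZ, and 205 and 179 TPM in WT libraries, with the HOMO pair inside the ranges of the others. Its log2 fold change in HOMO against WT was 0.01 (SE 0.10, limma adjusted p = 0.96), with an interval from 0.852-fold to 1.20-fold. Bak1 was at 32.0 and 31.2 TPM in HOMO, 36.3 and 31.9 TPM in HTZ, and 33.5 and 31.8 TPM in WT libraries, overlapping throughout. Its log2 fold change was -0.05 in HOMO against WT (SE 0.12, limma adjusted p = 0.85, interval 0.800-fold to 1.17-fold). Bak1 shares 437 exon bases with Ggnbp1 on the other strand, which stood at 5.49 to 8.23 TPM, and reads of that stretch cannot be told apart unless strand was kept. Bok, a further effector outside the 10 genes, was at 58.0 and 80.5 TPM in HOMO, 74.4 and 72.7 TPM in HTZ, and 63.2 and 69.0 TPM in WT libraries (limma adjusted p = 0.89 in HOMO against WT).

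Among the BH3-only genes, Bcl2l11 showed the widest spread of the 9 members. Bim, its product, binds all guardians and acts in the death of neurons deprived of trophic support. Bcl2l11 was at 7.80 and 9.82 TPM in HOMO, 10.1 and 10.1 TPM in HTZ, and 18.2 and 12.3 TPM in WT libraries. All HOMO and HTZ libraries lay below both WT libraries, and the HOMO pair lay below the HTZ pair. Means were 8.81 ± 1.43, 10.1 ± 0.0495 and 15.2 ± 4.17 TPM (SD, n = 2 each). Against WT, the log2 fold change was -0.71 in HOMO (SE 0.22, limma adjusted p = 0.18, unadjusted p = 0.015), an interval of 0.426-fold to 0.880-fold. In HTZ against WT it was -0.52 (SE 0.22, limma adjusted p = 0.36, unadjusted p = 0.0498). In HOMO against HTZ it was -0.18 (SE 0.22, limma adjusted p = 0.9999). WT replicate 1 carried much of the difference: without it the values against WT were -0.44 in HOMO and -0.26 in HTZ libraries, and without WT replicate 2 they were -0.97 and -0.79.

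Bbc3, whose product Puma is the main BH3-only effector of p53 in neurons, did not follow Bcl2l11. It stood at 40.5 and 30.7 TPM in HOMO, 43.3 and 32.1 TPM in HTZ, and 39.2 and 39.6 TPM in WT libraries. The WT pair lay inside the ranges of the others. The log2 fold change was -0.16 in HOMO against WT (SE 0.18, limma adjusted p = 0.67, interval 0.661-fold to 1.22-fold). Pmaip1, whose product Noxa binds Mcl1, was at 0.62 and 0.72 TPM in HOMO, 1 and 0.63 TPM in HTZ, and 0.69 and 0.55 TPM in WT libraries. With no filter on low values, over 22294 genes, its log2 fold change was 0.04 in HOMO against WT (SE 0.15, limma adjusted p = 0.92) and 0.16 in HTZ against WT (SE 0.15, limma adjusted p = 0.69).

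Trp53 was at 53.5 and 57.2 TPM in HOMO, 58.7 and 54.8 TPM in HTZ, and 93.1 and 63.6 TPM in WT libraries. The 4 HOMO and HTZ libraries lay close together and below both WT libraries, which differed widely. Means were 55.3 ± 2.62, 56.7 ± 2.79 and 78.4 ± 20.8 TPM (SD, n = 2 each). Against WT, the log2 fold change was -0.47 in HOMO (SE 0.18, limma adjusted p = 0.24, unadjusted p = 0.033) and -0.43 in HTZ libraries (SE 0.18, limma adjusted p = 0.35, unadjusted p = 0.045). The interval for HOMO against WT ran from 0.539-fold to 0.966-fold. HOMO and HTZ libraries differed by -0.04 (SE 0.18), with an interval from 0.729-fold to 1.31-fold. Again WT replicate 1 weighed most. Without it the values against WT were -0.20 in HOMO and -0.16 in HTZ libraries, and without WT replicate 2 they were -0.74 and -0.71. A pseudogene that matches Trp53 over 353 bases at 97.7% identity was listed at 0 in all libraries.

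Marker sums for dividing cells and newborn neurons were lower in all 4 HOMO and HTZ libraries than in WT, as were Bcl2l11 and Trp53. The summed level of 16 S phase genes was 487 and 548 TPM in HOMO, 574 and 552 TPM in HTZ, and 768 and 606 TPM in WT libraries. All 16 averaged below WT in both HOMO and HTZ libraries, where 55.2% and 59.8% of all genes lay below. This sum put the 6 libraries in nearly the order of Trp53, with WT replicate 1 far above the rest. The summed level of 10 newborn neuron genes was 3410 and 3250.2 TPM in HOMO, 3487 and 3996 TPM in HTZ, and 4326 and 5055 TPM in WT libraries. By mean TPM all 10 lay below WT in both HOMO and HTZ libraries. By log2 fold change 9 lay below and 1 above in each. Unlike Bcl2l11 and Trp53, the newborn neuron sum was highest in WT replicate 2. WT replicate 1 was the higher WT library for 5 of the 10 genes, such as Prox1 (175 against 110.5 TPM in WT replicate 2), and WT replicate 2 for the other 5, such as Tubb3 (1728 against 1471 TPM in WT replicate 1). Other marker sums did not fall. The summed level of 10 radial glia genes was 3673 and 3782 TPM in HOMO, 4347 and 3906 TPM in HTZ, and 3407 and 3415 TPM in WT libraries. By mean TPM 6 of these 10 lay above WT in HOMO and 7 in HTZ libraries, and by log2 fold change 6 lay above and 4 below in each. Most of this sum was 1 gene, Fabp7. It stood at 2525 and 2573 TPM in HOMO, 3008 and 2849 TPM in HTZ, and 2268 and 2477 TPM in WT libraries. The radial glia sum therefore speaks mainly for Fabp7. The sum of 8 mature neuron genes was 2050 and 2707 TPM in HOMO, 1354 and 2210 TPM in HTZ, and 1485 and 2171 TPM in WT libraries, overlapping WT. The part of all these markers in the levels of Bcl2l11 and Trp53 was not tested.

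Cdkn1a, which encodes the CDK inhibitor p21, differed most within genotypes. It stood at 17.7 and 31.6 TPM in HOMO, 29.4 and 18.9 TPM in HTZ, and 15.6 and 14.5 TPM in WT libraries. All 4 HOMO and HTZ libraries were above both WT libraries, but HOMO replicate 1 exceeded the higher WT library by little. Means were 24.7 ± 9.80, 24.2 ± 7.41 and 15.1 ± 0.764 TPM (SD, n = 2 each). The log2 fold change was 0.62 in HOMO against WT (SE 0.30, limma adjusted p = 0.32, unadjusted p = 0.079) and 0.62 in HTZ against WT (SE 0.30, limma adjusted p = 0.41, unadjusted p = 0.081). The interval for HOMO against WT ran from 0.937-fold to 2.53-fold. Without HOMO replicate 2 the value in HOMO against WT was 0.22 and without HOMO replicate 1 it was 1.02. In HTZ against WT it was 0.31 without HTZ replicate 1 and 0.92 without HTZ replicate 2.

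HTZ replicate 1, which had the second highest level of Cdkn1a, also had the most choroid plexus RNA, but HOMO replicate 2, with the highest, had far less. The summed level of 9 choroid plexus genes was 6756 and 305 TPM in HOMO, 11807 and 50.5 TPM in HTZ, and 57.5 and 36.6 TPM in WT libraries, with all 9 averaging above WT in both. HOMO replicate 2 had the highest sums for endothelium (120.5 and 261 TPM in HOMO, 178 and 186 TPM in HTZ, 228 and 156 TPM in WT libraries) and for meninges (39.8 and 293 TPM in HOMO, 97.6 and 103 TPM in HTZ, 160 and 60.9 TPM in WT libraries), while HTZ replicate 1 was within the WT range of both. Motile cilia genes, a list written after the data were seen, separated HOMO and HTZ libraries from WT most, while HOMO and HTZ libraries overlapped each other. Their summed level over 8 genes was 367 and 266 TPM in HOMO, 429 and 154 TPM in HTZ, and 12.0 and 8.7 TPM in WT libraries. Each of the 8 was above WT in all 4 HOMO and HTZ libraries, as were 13.3% of all genes. Of the 8, 2 passed with limma in HOMO against WT and 2 in HTZ against WT, where 0.0413% and 0.0344% of all genes passed. Because the list was written with these values seen, this count is not separate evidence. Glial sums were also above WT in all 4 libraries. The summed level of 8 astrocyte genes was 3022 and 3541 TPM in HOMO, 2922 and 2616 TPM in HTZ, and 1605 and 1837 TPM in WT libraries, with all 8 averaging above WT in both. Microglial genes had a summed level of 331 and 339 TPM in HOMO, 413 and 258 TPM in HTZ, and 166 and 192 TPM in WT libraries. All 10 microglial genes averaged above WT in HOMO and in HTZ libraries. Of all genes, 44.8% in HOMO and 40.2% in HTZ had a log2 fold change above 0 against WT. Of the 10 microglial genes, 8 were above both WT libraries in all 4, against 13.3% of all genes. The part of these cells in the level of Cdkn1a was not tested. Cdkn1c (p57), of the same inhibitor family as Cdkn1a, was also highest in HTZ replicate 1 and HOMO replicate 2, at 20.9 and 39.4 TPM in HOMO, 46.3 and 20.3 TPM in HTZ, and 29.1 and 18.8 TPM in WT libraries. WT replicate 1 of Cdkn1c, however, lay above the lower library of both other genotypes (limma adjusted p = 0.75 in HOMO against WT). Cdkn1b (p27) was at 97.6 and 83.2 TPM in HOMO, 107 and 82.4 TPM in HTZ, and 95.4 and 80.1 TPM in WT libraries (limma adjusted p = 0.90).

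**Figure D3:**
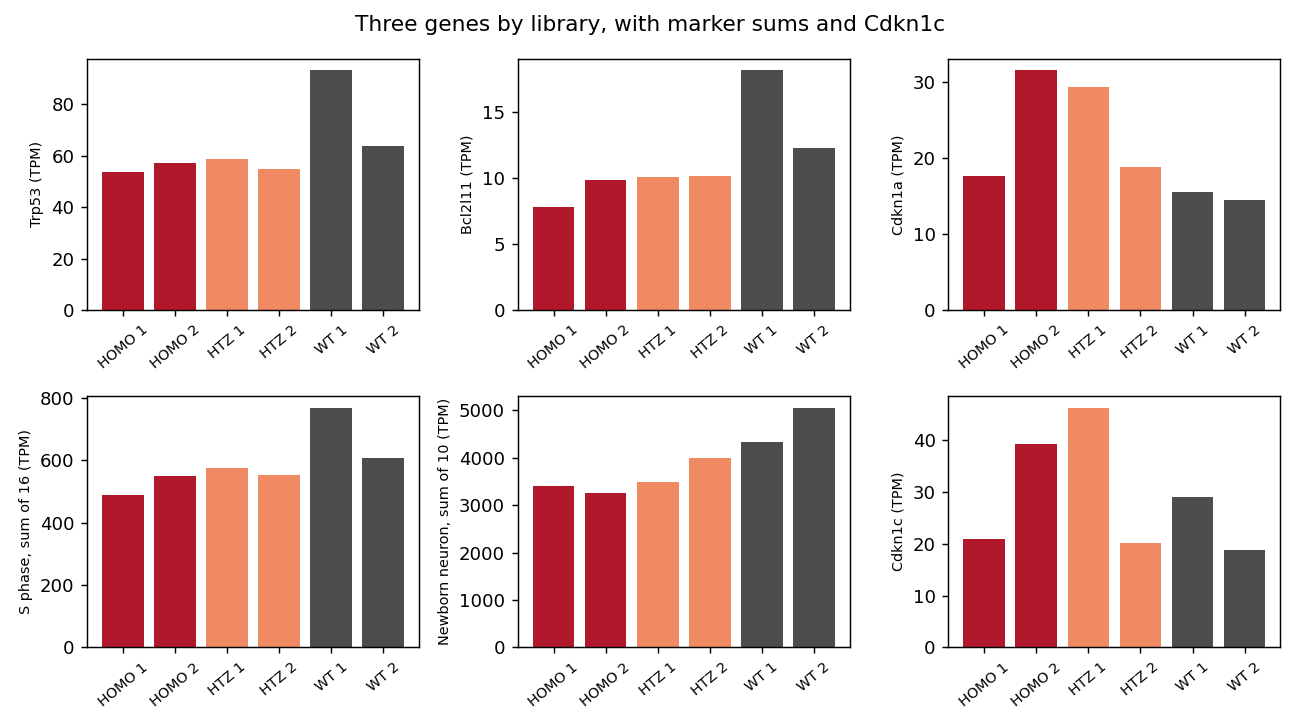
TPM of Trp53, Bcl2l11 and Cdkn1a (top) and the summed TPM of 16 S phase genes, the summed TPM of 10 newborn neuron genes and the TPM of Cdkn1c (bottom), 1 bar per library with HOMO, HTZ and WT from left to right. Trp53, Bcl2l11 and the S phase sum are highest in WT replicate 1, and Cdkn1a and Cdkn1c are highest in HOMO replicate 2 and HTZ replicate 1.

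None of the 3 genes passed under any of the 14 other settings tried. In each comparison 7 of these settings change only the error or the genes tested and leave the fold change as it was. Under the 7 that can move it, the 3 genes kept their sign against WT. The lowest limma adjusted p among them was 0.070, for Cdkn1a in HOMO against WT when the 2 libraries richest in Ttr were left out, so that HOMO and HTZ had 1 library each.

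**Figure D4:**
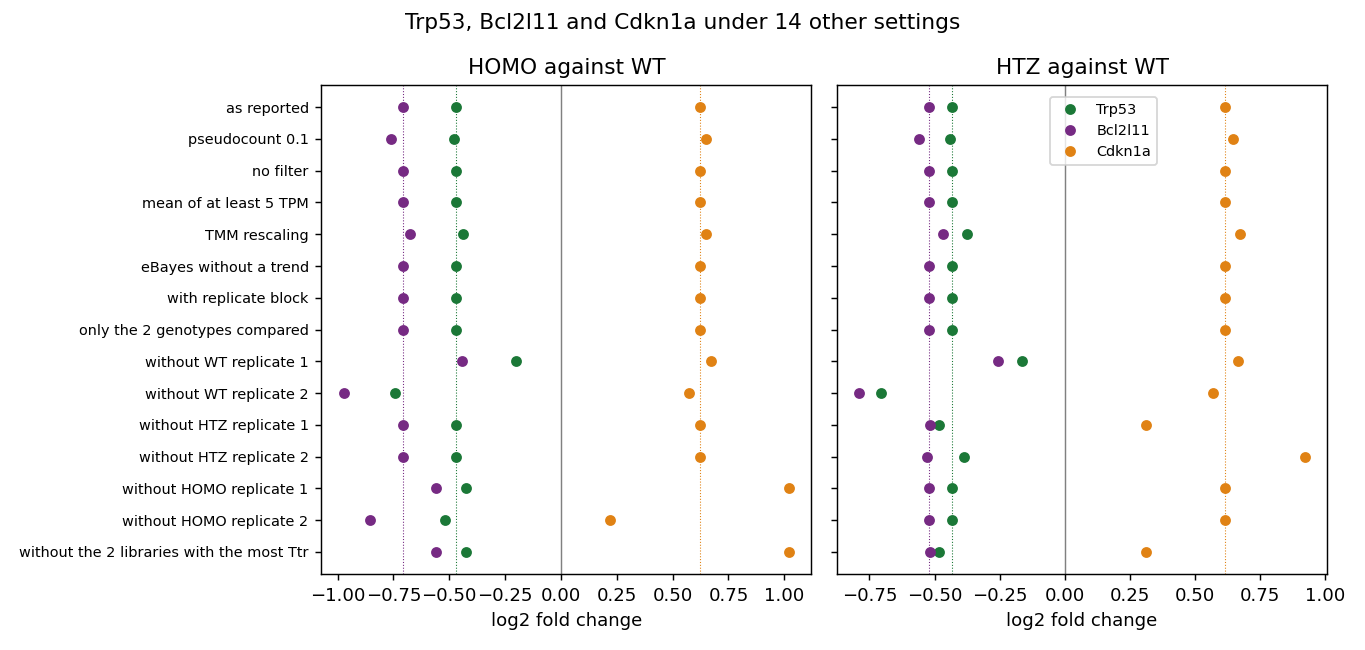
Log2 fold change of Trp53, Bcl2l11 and Cdkn1a in HOMO against WT (left) and HTZ against WT (right), as reported (top row, dotted lines) and under 14 other settings, 1 per row, of which 7 per panel cannot move the value. Trp53 and Bcl2l11 stay below 0 and come nearest to it without WT replicate 1, and Cdkn1a stays above 0.

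Ratios within a library do not depend on how libraries are scaled. Bax RNA was 17.9 to 23.5 times Bcl2 RNA and 2.08 to 2.51 times Bcl2l1 RNA over the 6 libraries. The sum of both effectors over the sum of the 3 guardians was 1.27 and 1.35 in HOMO, 1.34 and 1.35 in HTZ, and 1.24 and 1.27 in WT libraries, so HOMO replicate 1 lay within the WT range and the other HOMO and HTZ libraries lay above it. The summed level of the 3 BH3-only genes is not a ratio and does depend on the scaling. It was 48.9 and 41.2 TPM in HOMO, 54.4 and 42.8 TPM in HTZ, and 58.0 and 52.4 TPM in WT libraries, with HTZ replicate 1 inside the WT range. Cdkn1a relative to Trp53 was 0.331 and 0.552 in HOMO, 0.501 and 0.345 in HTZ, and 0.168 and 0.228 in WT libraries. In this ratio all HOMO and HTZ libraries stood above both WT libraries. That could not have been otherwise, since every HOMO and HTZ library had more Cdkn1a and less Trp53 than both WT libraries. The separation of this ratio therefore adds nothing to the levels of Cdkn1a and Trp53 given above. These ratios and the sum were chosen with the values known and carry no test.

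The rest of the pathway was read from lists of other genes, but the p53 target list also includes members such as Cdkn1a, Bbc3 and Bax. The lists were written with earlier results of these data known, and 0 genes of any pathway list passed with limma in any comparison. Among 18 apoptosome, caspase and inhibitor genes, 2 of 18 were below WT in HOMO libraries at an unadjusted p of 0.05 and 0 above. Of all genes, 18.1% were at that level in either direction. In HTZ against WT, 0 of the 18 were below and 0 above, with a background of 14.1%. The list median in HOMO against WT was 0.06, against -0.04 for all genes. Casp2, an initiator caspase gene, was at 21.3 and 21.2 TPM in HOMO, 24.9 and 24.4 TPM in HTZ, and 36.6 and 25.7 TPM in WT libraries (log2 fold change -0.51, SE 0.17, limma adjusted p = 0.21 in HOMO against WT). Htra2, a mitochondrial protease that blocks caspase inhibitors, and Apaf1, the scaffold of the apoptosome, had log2 fold changes of 0.22 and -0.26 (limma adjusted p = 0.31 and 0.39).

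Of the 13 p53 regulators tested, 11 were below WT on average in HOMO and 11 in HTZ libraries, where 55.2% and 59.8% of all genes lay below. The medians were -0.21 in both, against -0.04 and -0.06 for all genes. At an unadjusted p of 0.05, 1 of 13 was below WT in each comparison, no more than the 18.1% and 14.1% of all genes at that level in either direction. Trp53bp1, a DNA break protein that binds p53, was at 71.1 and 61.5 TPM in HOMO, 72.5 and 71.9 TPM in HTZ, and 83.03 and 77.6 TPM in WT libraries (log2 fold change -0.28, SE 0.11, limma adjusted p = 0.24 in HOMO against WT). The phosphatase gene Ppm1d, the deubiquitinase gene Usp7 and the kinase gene Hipk2 had log2 fold changes of -0.30, -0.19 and -0.23 in HOMO against WT (limma adjusted p from 0.34 to 0.36). Mdm2, the ligase that degrades p53 and itself a p53 target, was at 50.6 and 42.9 TPM in HOMO, 50.5 and 41.5 TPM in HTZ, and 54.7 and 44.0 TPM in WT libraries.

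Of the 33 p53 target genes tested, which include Cdkn1a, Bbc3, Bax and Mdm2, 13 were above and 20 below WT in HOMO libraries, where 55.2% of all genes lay below, and the median of -0.06 was close to that of all genes. At an unadjusted p of 0.05, 2 were above and 1 below, where 18.1% of all genes were at that level. Ak1, an adenylate kinase gene, was at 53.4 and 48.4 TPM in HOMO, 47.2 and 51.3 TPM in HTZ, and 36.6 and 39.3 TPM in WT libraries (log2 fold change 0.41, SE 0.11, limma adjusted p = 0.15 in HOMO against WT). Fas, a death receptor gene, was low throughout, at 1.79 and 1.34 TPM in HOMO, 1.47 and 0.67 TPM in HTZ, and 0.49 and 0.30 TPM in WT libraries (limma adjusted p = 0.22). Trp53inp1 was at 23.3 and 25.3 TPM in HOMO, 31.4 and 25.2 TPM in HTZ, and 40.1 and 28.9 TPM in WT libraries (log2 fold change -0.47, SE 0.19, limma adjusted p = 0.26). Target genes thus lay on both sides of WT, with Ak1 and Cdkn1a above it and Trp53inp1 below it.

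Of the other Bcl2 family genes, Bcl2l2 (Bcl-w) was at 40.1 and 39.96 TPM in HOMO, 35.3 and 36.8 TPM in HTZ, and 37.4 and 34.9 TPM in WT libraries (limma adjusted p = 0.48 in HOMO against WT). Bcl2a1b, a guardian gene of blood cells, was at 3.94 and 2.17 TPM in HOMO, 6.88 and 3.22 TPM in HTZ, and 2.29 and 2.53 TPM in WT libraries (limma adjusted p = 0.77). Among 6 further BH3-only genes tested, Bad (66.3 and 61.7 TPM in HOMO, 72.2 and 60.6 TPM in HTZ, 57.8 and 52.3 TPM in WT libraries) lay above WT in all 4 HOMO and HTZ libraries. Bid (24.02 and 29.3 TPM in HOMO, 21.8 and 26.1 TPM in HTZ, 32.1 and 30.4 TPM in WT libraries) lay below. Neither passed (limma adjusted p = 0.38 for Bad and 0.44 for Bid in HOMO against WT), nor did Bnip3l (limma adjusted p = 0.36) or Bmf (limma adjusted p = 0.85).

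Of 10 G1 cyclin, kinase and related genes, some of them targets of p21, 7 were below WT on average in HOMO and 9 in HTZ libraries, where 55.2% and 59.8% of all genes were. Their medians were -0.18 and -0.24, against -0.04 and -0.06 for all genes. At an unadjusted p of 0.05, 1 of 10 was below WT in HOMO libraries and 0 of 10 in HTZ libraries. Of all genes, 18.1% and 14.1% were at that level in either direction. Cdk4 was at 212 and 222 TPM in HOMO, 261 and 227 TPM in HTZ, and 366 and 255 TPM in WT libraries (log2 fold change -0.49, SE 0.17, limma adjusted p = 0.21 in HOMO against WT). Cdk6, Ccnd3 and Rb1 had log2 fold changes of -0.50, 0.40 and -0.21 in HOMO against WT (limma adjusted p = 0.32, 0.32 and 0.33). The other CDK inhibitors Cdkn2d and Cdkn2c had log2 fold changes of 0.29 and -0.22 (limma adjusted p = 0.38 and 0.65).

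**Figure D5:**
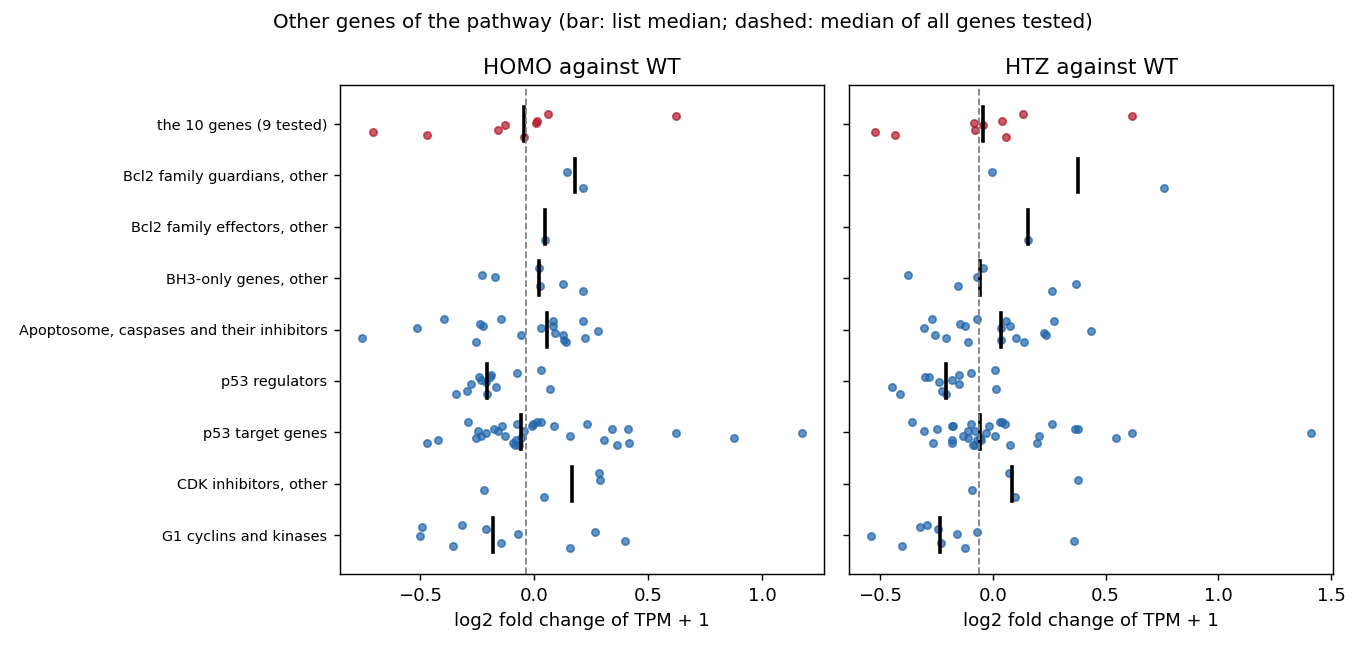
Log2 fold change of each gene tested (1 point per gene) for the 10 genes and for 8 lists of pathway genes. The p53 target list includes members such as Cdkn1a. HOMO against WT is on the left and HTZ against WT on the right, with the list median as a bar and the median of all genes tested as a dashed line. The p53 regulators and the G1 genes lie mostly left of the dashed line, and the p53 target genes lie on both sides of it.

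Genes with the library pattern most like that of the 3 most variable members were found by the root mean square difference of centred log2(TPM + 1) over the 6 libraries, among 11567 named genes that averaged 5 TPM or more. Nearest to Trp53 was Hnrnpdl, an RNA-binding protein gene, with a difference of 0.021, followed by Cttnbp2 (0.044) and Uhrf1 (0.045). Hnrnpdl stood at 227 and 232 TPM in HOMO, 240.02 and 225 TPM in HTZ, and 383 and 262 TPM in WT libraries. Nearest to Bcl2l11 were Xkr7 (0.061), Afap1l1 (0.068) and Pik3r3 (0.069). Nearest to Cdkn1a were Tcn2 (0.072), Ly6c1 (0.082) and Tgfbr2 (0.107), and Tcn2 was at 11.1 and 19.7 TPM in HOMO, 19.1 and 13.4 TPM in HTZ, and 11 and 9.40 TPM in WT libraries. With 6 libraries and this many genes, close matches are found for most patterns.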

How the data were processed

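The authors deposited TPM for 6 libraries (HOMO, HTZ and WT, 2 each) in 1 table. The design text names TopHat 2.0.11 against mm10 and Cufflinks 2.2.1, while the submitters' processing notes name FastQC and RSEM, so which tools made the TPM is not settled. Depth is unknown, so no counting interval was computed. A linear model of log2(TPM + 1) per gene, fitted with limma 3.58.1 (R 4.3.3) to all 6 libraries, had the genotypes as terms and moderated variances with an intensity trend, leaving 3 residual degrees of freedom. P-values were adjusted by Benjamini and Hochberg over the 14518 genes averaging 1 TPM or more, and intervals are at 95%. The fit was also run on simulated data with independent normal noise. These data lack variation shared by many genes of a library, such as choroid plexus RNA. The run therefore does not show how the fit behaves with it. An exact test of 2 against 2 libraries cannot go below 0.33. Copies and overlaps came from GENCODE vM21 and BLAST 2.17.0 (90% identity over 200 bases). The start-site windows are RefSeq's. The members, lists and ratios were chosen with earlier results of these data known. All members are named, with up to 4 genes per pathway list by smallest p in HOMO against WT, and others where a sentence needs them; 1 gene that this rule names is not reported here. Alternatives covered pseudocount, filter, scaling, variance model, replicate block, genotypes fitted and libraries left out.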

Additional observations from a re-analysis of the deposited data

How the results depend on the processing

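No member passed under any of 14 alternatives. Of 378 member values, 189 came from settings that cannot move the fold change (no filter or a higher one, no trend, the block, 2 genotypes only, or a library of the third genotype left out). Of the other 189, 156 kept the reported sign and 33 did not. These 33 lay in 16 of 27 member comparisons, none of Bcl2l11, Trp53 or Cdkn1a against WT. For these 16, the lowest and highest values without 1 library were, in HOMO against WT, -0.14 and 0.27 for Bcl2, -0.019 and 0.037 for Bcl2l1, -0.33 and 0.074 for Mcl1, -0.087 and 0.11 for Bax, -0.35 and 0.037 for Bbc3. In HTZ against WT they were -0.071 and 0.34 for Bcl2, -0.24 and 0.16 for Mcl1, -0.061 and 0.14 for Bax, -0.031 and 0.15 for Bak1, -0.29 and 0.13 for Bbc3. In HOMO against HTZ they were -0.28 and 0.13 for Bcl2, -0.20 and 0.030 for Mcl1, -0.10 and 0.044 for Bax, -0.29 and 0.13 for Bbc3, -0.086 and 0.013 for Trp53, -0.39 and 0.41 for Cdkn1a. Without the 2 libraries with the most Ttr, the sign changed for Bcl2 (-0.10) and Bcl2l1 (-0.019) in HOMO against WT, for Bcl2 (-0.071), Bax (-0.031) and Bak1 (-0.031) in HTZ against WT, and for Bax (0.043) and Trp53 (0.061) in HOMO against HTZ. With TMM rescaling it changed for Mcl1 in HTZ against WT (0.016) and Cdkn1a in HOMO against HTZ (-0.022). The count of all genes called depended far more on the setting. In HOMO against WT it was 6 as reported, 149 when 0.1 replaced 1 as pseudocount, 3 unfiltered, 393 with these 2 genotypes only, 491 without the 2 libraries with the most Ttr, and 3 to 397 without 1 library. In HTZ against WT it was 5 as reported, 49 with that pseudocount, 1 unfiltered, 152 without the 2 libraries with the most Ttr, and 3 to 397 without 1 library. In HOMO against HTZ it was 2 as reported, 1 unfiltered, 1 with eBayes without a trend, 12 without the 2 libraries with the most Ttr, and 1 to 5 without 1 library. The cause was not tested. With the replicate block the counts were 283 in HOMO against WT and 9 in HTZ against WT, and no member was called. The labels do not say that a replicate number marks shared animals, and the deviations of same-numbered libraries correlated across genes at 0.35 between HOMO and HTZ, -0.09 between HOMO and WT and 0.21 between HTZ and WT. In fits that leave a genotype with 1 library, that library is assumed to vary like the others.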

Other observations

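Perp, a p53 target gene of epithelial cells, was at 9.38 and 3.63 TPM in HOMO, 13.4 and 3.63 TPM in HTZ, and 1.87 and 2.29 TPM in WT libraries, above WT in all 4 HOMO and HTZ libraries and highest in the libraries with most Ttr. It was chosen after its values were seen and did not pass with limma. Of the other genes of the p53 target list used here with a p53 element in a start-site window, Ccng1 was at 43.3 and 45.7 TPM in HOMO, 45.5 and 45.6 TPM in HTZ, and 35.0 and 40.8 TPM in WT libraries. It lay above WT in all 4, as did 13.3% of all genes. Genes outside that list were not checked for being p53 targets. Gtse1 was at 5.10 and 5.92 TPM in HOMO, 8.22 and 5.38 TPM in HTZ, and 10.7 and 5.48 TPM in WT libraries, overlapping WT.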
